A study of Mus musculus with 12 samples.

Results

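The tibia shaft of growing mice, freed of its marrow, was sequenced from 12 male mice aged 8 weeks, and 10 genes of the cartilage matrix were followed through the 3 genotypes of the study. The genes were chosen by name and are *Acan*, *Hapln1*, *Col2a1*, *Col9a1*, *Col9a2*, *Col9a3*, *Matn1*, *Matn3*, *Comp* and *Col10a1*, which are 10 of the 47069 genes of the count matrix. The groups had 4 mice each. Jrt;Sost-het mice carried the dominant osteogenesis imperfecta allele Jrt of *Col1a1* (Col1a1 Jrt/+), the gene of a chain of type I collagen, and, according to the methods of the study, were heterozygous for the *Sost* knockout, since the labels name only their *Col1a1* genotype. Jrt;Sost-ko mice carried the same *Col1a1* allele and lacked *Sost* on both chromosomes (Sost -/-). WT mice were wild type at both genes. *Sost* makes sclerostin, the Wnt inhibitor of osteocytes. All were of mixed FVB/C57BL6 background, but a parallel colony supplied the WT mice, and in comparisons with WT the effects of genotype and colony cannot be told apart. The mice with both alleles descend from 1 recombined founder. No label ties the mouse numbers 1 to 4 of one group to those of another.

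Cartilage matrix is a mesh of thin collagen fibrils that traps the large proteoglycan aggrecan. Type II collagen forms the fibrils and type IX collagen, built from 3 different chains, decorates their surface, while matrilins and COMP connect fibrils to other matrix molecules, and link protein fastens aggrecan to hyaluronan. In a long bone these genes are known from the growth plates and joint surfaces at its ends, and *Col10a1* from the hypertrophic chondrocytes that border on new bone. A shaft is mostly cortical bone with periosteum, and tendon and muscle attach to its surface.

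The 12 libraries held between 24366061 and 44418863 counts on genes. *Sost* checked the label of the Jrt;Sost-ko group, with 10 to 43 counts in its libraries and 648 to 2764 in the other groups. Its counts overlapped between Jrt;Sost-het (648 to 1871) and WT libraries (1030 to 2764), so they do not tell these groups apart. All 10 cartilage genes had enough counts to be tested in each comparison. In bulk RNA fewer cartilage cells and less RNA per cell cannot be told apart, so that levels below describe whole tissue. Levels within a gene are given as CPM, the count per 1000000 counts of the library after TMM scaling, and levels between genes as RPKM, which is CPM per kilobase of exons. In GRCm38 the genes lie on 9 chromosomes, among them *Acan* on chromosome 7 (79053483 to 79115099), *Col2a1* on chromosome 15 (97975602 to 98004695), *Comp* on chromosome 8 (70373558 to 70382066) and *Col10a1* on chromosome 10 (34389981 to 34397085). *Col10a1* lies within the bounds of *Nt5dc1* on the other strand, and *Col9a3* overlaps *Tcfl5* there. Whether reads were counted by strand is not given in the sources used here. In WT mouse 2, however, *Col10a1* had only 2 counts although *Nt5dc1* had at least 632 in every library.

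The stretches upstream of the start are shown for *Col10a1*, *Matn3* and *Col9a1*. The levels of these 3 members varied most between mice of the same group, those of *Col10a1* largely through WT mouse 2. Each stretch holds the 250 bases before a transcription start in RefSeq (GRCm38.p6), read 5′ to 3′ on the plus strand. Capitals mark TATAAA, the TATA box, and ACAAAG, a form of the SOX core motif.
*Col10a1* (chr10:34389731-34389980): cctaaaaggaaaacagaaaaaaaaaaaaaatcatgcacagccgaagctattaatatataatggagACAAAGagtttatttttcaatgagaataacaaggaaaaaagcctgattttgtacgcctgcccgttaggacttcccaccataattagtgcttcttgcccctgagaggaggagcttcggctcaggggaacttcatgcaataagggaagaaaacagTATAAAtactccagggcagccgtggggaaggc
*Matn3* (chr12:8947679-8947928): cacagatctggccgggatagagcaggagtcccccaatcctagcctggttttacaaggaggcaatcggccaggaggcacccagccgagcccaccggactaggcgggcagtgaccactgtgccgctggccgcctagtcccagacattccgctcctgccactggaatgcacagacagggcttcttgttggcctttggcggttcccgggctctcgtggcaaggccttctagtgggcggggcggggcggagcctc
*Col9a1* (chr1:24177360-24177609): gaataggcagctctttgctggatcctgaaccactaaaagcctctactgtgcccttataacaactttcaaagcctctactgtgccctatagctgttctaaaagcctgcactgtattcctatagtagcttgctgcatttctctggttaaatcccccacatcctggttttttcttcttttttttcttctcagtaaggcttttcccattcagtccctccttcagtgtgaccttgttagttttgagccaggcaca
The *Col10a1* stretch held TATAAA 32 bases and ACAAAG 185 bases before the start, whereas the other two had neither. Such windows were found for 7 of the 10 members (8 windows, *Col9a1* having 2), and on either strand TATAAA occurred in 1 of the 8, ACAAAG in 1 and ACAATG, another SOX core form, in 0. Over all 32851 windows of this length, 12.4% held TATAAA, 16.5% ACAAAG and 10.7% ACAATG. No window was found for *Col2a1*, *Col9a3* or *Comp*.

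The cartilage genes differed widely between mice of the same genotype. Summed over the 10 genes, Jrt;Sost-het mouse 1 had 3960 CPM and WT mouse 4 had 3135 CPM. The other 10 mice had 87.5 to 943 CPM. Jrt;Sost-het mouse 1 was the highest of 12 mice for each of the 10 genes and WT mouse 4 was the second for each, whereas WT mouse 2 was the lowest for 9 of them. Of all 17245 genes with enough counts over the 12 mice, 2.93% had the same mice as their highest pair and 17.6% had WT mouse 2 as the lowest. These mice are taken up with each comparison below, since no label sets them apart from the rest of their group.

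**Figure D1:**
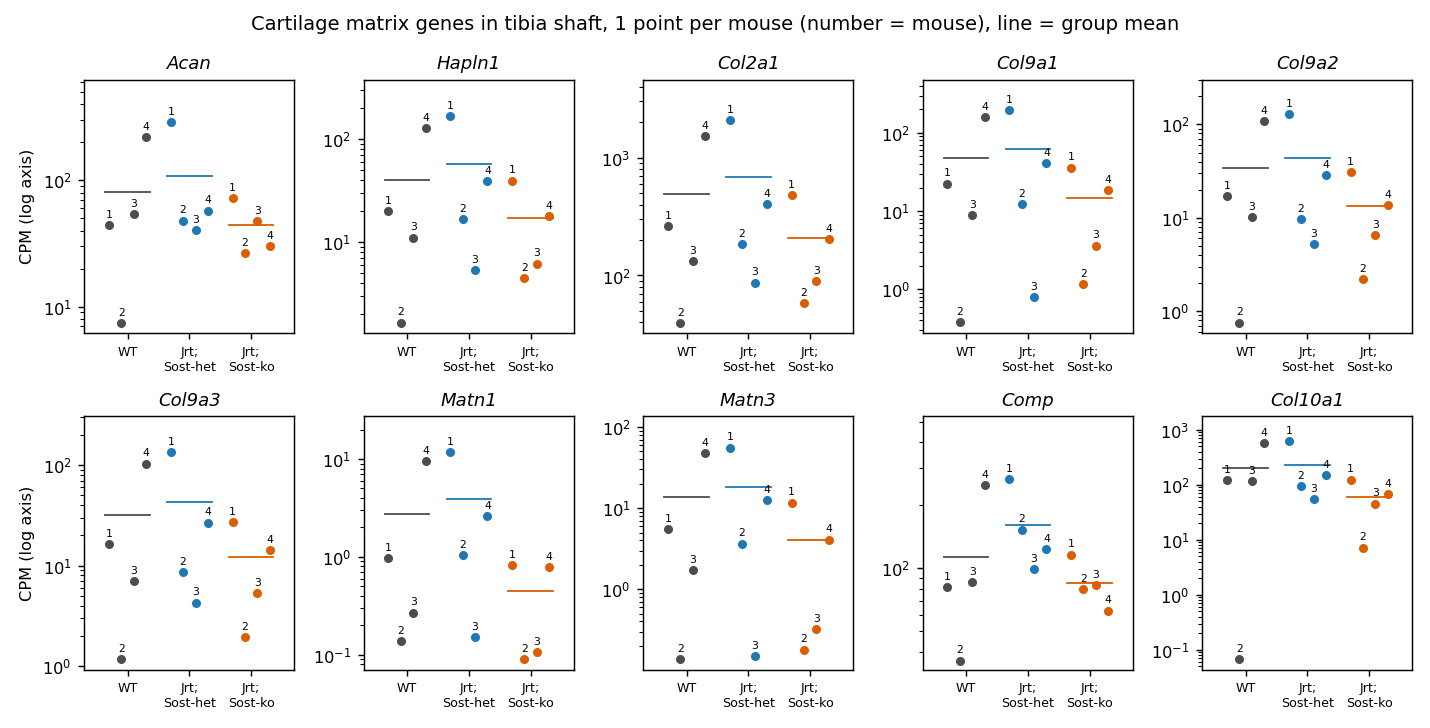
Level of each of the 10 cartilage matrix genes in CPM on a log axis, with 1 point per mouse carrying its number, and a line at the mean of the 4 mice of each group. Jrt;Sost-het mouse 1 and WT mouse 4 stand above the others in every panel and WT mouse 2 at the bottom of 9 of them.

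*Col2a1*, the chain of the fibrils themselves, had 2088, 184, 87.1 and 403 CPM in Jrt;Sost-het mice 1 to 4. In Jrt;Sost-ko mice it had 483, 58.7, 89.9 and 204 CPM. In WT mice it had 260, 39.6, 133 and 1529 CPM. The 3 ranges thus lay over each other, and the highest and lowest of the 12 mice were 52.8-fold apart. Even the lowest mouse had 1157 *Col2a1* counts, so counting error was small beside this spread.

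*Acan*, the core protein of aggrecan, ranged from 7.42 CPM in WT mouse 2 to 290 CPM in Jrt;Sost-het mouse 1, 39.0-fold. Its other values within Jrt;Sost-het were close together, at 48.0, 40.4 and 57.6 CPM. *Hapln1*, the link protein, ranged 102-fold, from 1.64 to 168 CPM. The highest pair of mice and the lowest mouse were the same for both proteoglycan genes as for *Col2a1*, whereas Jrt;Sost-ko mouse 4 was rank 10 of 12 for *Acan* and rank 6 for *Col2a1*.

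The chains of type IX collagen had still wider ranges. *Col9a1* ranged 517-fold, *Col9a2* 172-fold and *Col9a3* 115-fold. *Col9a1* had 195, 12.3, 0.788 and 41.4 CPM in Jrt;Sost-het mice 1 to 4. It had 36.1, 1.17, 3.62 and 18.5 CPM in Jrt;Sost-ko mice, and 22.5, 0.376, 8.84 and 158 CPM in WT mice. Values below 4 CPM occurred in all 3 groups, and the lowest of them rested on 11 counts.

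The matrilins were the least abundant members. *Matn1* had 11.9, 1.05, 0.150 and 2.60 CPM in Jrt;Sost-het mice 1 to 4. In Jrt;Sost-ko mice it had 0.818, 0.0896, 0.106 and 0.786 CPM. In WT mice it had 0.965, 0.137, 0.269 and 9.58 CPM. *Matn1* rested on 3 to 39 counts in 9 of the 12 libraries, and no Jrt;Sost-ko mouse exceeded 24 counts. *Matn3* ranged 407-fold, from 0.137 CPM (4 counts) in WT mouse 2 to 55.7 CPM.

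*Comp*, cartilage oligomeric matrix protein, which tendon and ligament also make, varied least. It had 267, 153, 99.4 and 123 CPM in Jrt;Sost-het mice 1 to 4. It had 116, 79.6, 83.1 and 62.7 CPM in Jrt;Sost-ko mice. WT mice had 81.3, 36.2, 85.9 and 249 CPM. Its highest and lowest values were 7.38-fold apart, and only 1 Jrt;Sost-ko mouse reached the lowest Jrt;Sost-het mouse.

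*Col10a1*, the collagen of hypertrophic cartilage, had 621, 96.7, 54.8 and 149 CPM in Jrt;Sost-het mice 1 to 4. Its levels were 125, 7.26, 45.8 and 67.0 CPM in Jrt;Sost-ko mice. WT mice had 122, 0.0684, 118 and 581 CPM. With 2 counts in WT mouse 2 against 4949 or more in the other WT mice, *Col10a1* had the widest range of the 10 genes.

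Set against all genes, this spread was unusual. The standard deviation of log2 CPM within groups (9 degrees of freedom) was 3.40 for *Col10a1*, 3.15 for *Matn3* and 3.08 for *Col9a1*, which were ranks 5, 13 and 19 of 17245. It was 0.78 for *Comp*, the member with the smallest, at rank 977. The median gene had 0.20 and the 95th percentile was 0.82. Apart from *Comp*, all members therefore lay beyond the 95th percentile.

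Per length, the levels of the 10 genes formed 3 tiers. *Col10a1* (median of the 12 mice 34.3 RPKM), *Comp* (31.2 RPKM) and *Col2a1* (21.0 RPKM) came first. Neighbours within this tier did not differ beyond their spread, since *Col10a1* exceeded *Comp* in 7 of 12 mice and *Comp* exceeded *Col2a1* in 6. *Col2a1* exceeded *Acan* (6.40 RPKM) in 12 of 12 mice. The middle tier ran from *Acan* through *Col9a2* (3.84 RPKM), *Col9a1* (3.05 RPKM) and *Col9a3* (2.96 RPKM) to *Hapln1* (2.92 RPKM). *Acan* exceeded *Col9a2* in 7 mice, *Col9a1* exceeded *Col9a3* in 6 and *Col9a3* exceeded *Hapln1* in 9, but *Col9a2* was above *Col9a1* in 12 of 12. *Matn3* (1.29 RPKM) lay below *Hapln1* in 12 of 12 mice, and *Matn1* (0.40 RPKM) below *Matn3* in 10.

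**Figure D2:**
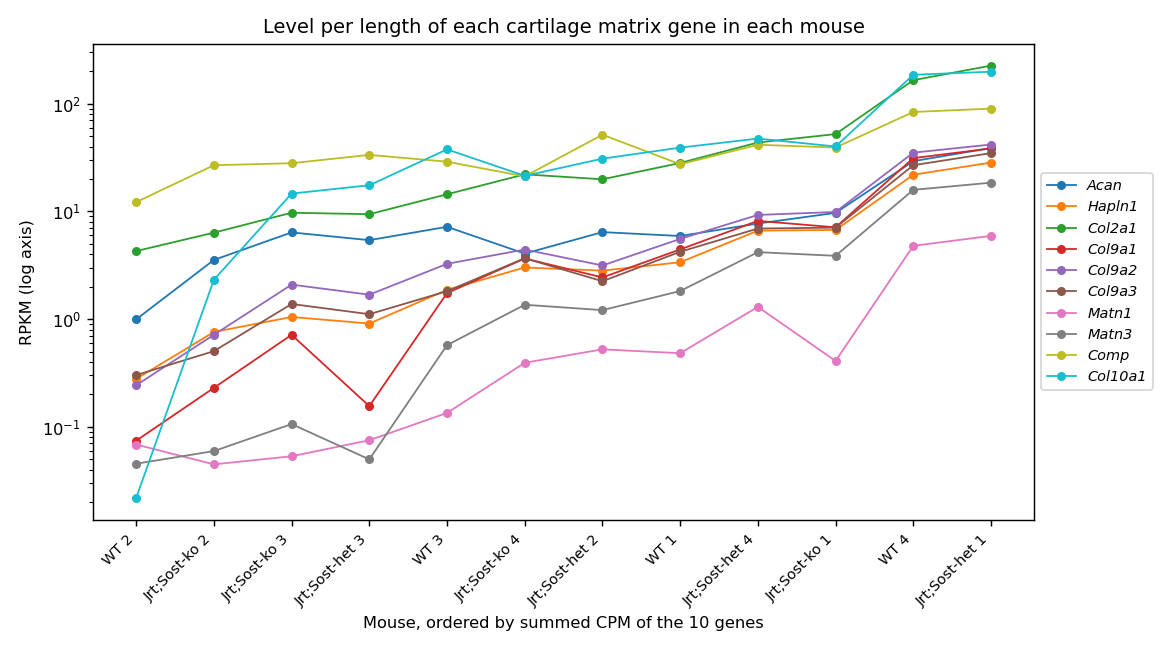
Level of each gene in RPKM on a log axis, with the 12 mice ordered along the horizontal axis by the summed CPM of the 10 genes. *Comp* is the flattest line and is above *Col2a1* in the mice at the left but below it in the highest ones, and *Col10a1* drops to 0.0219 RPKM in WT mouse 2.

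The make-up of the cartilage signal also differed between mice. *Comp* made up 6.75% of the summed CPM of the 10 genes in Jrt;Sost-het mouse 1 and 7.93% in WT mouse 4, but 41.4% in WT mouse 2 and 43.7% in Jrt;Sost-ko mouse 2. *Col2a1* made up 52.7% and 48.8% in the former pair, and 44.1% to 52.7% in all mice with 204 CPM of it or more. Mice with 58.7 to 184 CPM had shares of 29.3% to 34.4%, among them Jrt;Sost-ko mouse 2 at 32.2%. WT mouse 2, the lowest at 39.6 CPM, had 45.2%. The share of *Col2a1* was thus smaller where its level was lower, except in WT mouse 2. Relative to 100 *Col2a1* counts, there were 12.8 *Comp* counts in Jrt;Sost-het mouse 1 and 136 in Jrt;Sost-ko mouse 2. *Acan* had 13.9 to 18.8 counts per 100 *Col2a1* counts in 7 mice, among them both the highest mice and, at 18.8, the lowest one, WT mouse 2. It had 26.1 in Jrt;Sost-het mouse 2, and 40.3 to 53.0 in Jrt;Sost-het mouse 3, Jrt;Sost-ko mice 2 and 3 and WT mouse 3. Those last 4 mice came from all 3 groups. These proportions describe the 12 libraries, and the mice were arranged by the level of the same genes.

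Type IX collagen is known as a trimer with 1 chain of each gene, so its chains can be set against each other per length. In Jrt;Sost-het mouse 1 the levels were 38.4 RPKM for *Col9a1*, 41.8 for *Col9a2* and 34.8 for *Col9a3*. In WT mouse 4 they were 31.3, 35.1 and 26.8 RPKM. The ratio of *Col9a1* to *Col9a2* was 0.919 (95% interval 0.880 to 0.960) and 0.890 (0.855 to 0.927) in these mice. It was 0.0923 (0.0554 to 0.147) in Jrt;Sost-het mouse 3, 0.322 (0.213 to 0.481) in Jrt;Sost-ko mouse 2, 0.342 (0.275 to 0.423) in Jrt;Sost-ko mouse 3 and 0.305 (0.134 to 0.657) in WT mouse 2. WT mouse 3 lay between, at 0.535, and the other 5 mice had 0.720 to 0.881. *Col9a3* did not part from *Col9a2* in this way, their ratio being 0.557 to 0.832 in 11 mice and 1.24 in WT mouse 2, where they had 34 and 22 counts. The intervals are exact binomial ones and cover counting error only.

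The count of *Col10a1* per 100 *Col2a1* counts sets hypertrophic against other cartilage within a library. Jrt;Sost-het mice 1 to 4 had 29.7, 52.6, 62.9 and 36.8. Jrt;Sost-ko mice had 26.0, 12.4, 51.0 and 32.8. WT mice had 47.0, 0.173 (95% interval 0.0209 to 0.626), 88.4 and 38.0. Apart from WT mouse 2 and Jrt;Sost-ko mouse 2, the ratio thus stayed within 26.0 to 88.4 while *Col2a1* itself went from 87.1 to 2088 CPM. Its mean log2 ratio was -1.88 ± 0.85 (SD, n = 4) in Jrt;Sost-ko, -1.20 ± 0.49 in Jrt;Sost-het and -2.88 ± 4.02 in WT mice. No exact two-sided permutation test passed 0.05, with p = 0.2 for the 2 Jrt genotypes, p = 0.771 for Jrt;Sost-het against WT and p = 0.943 for Jrt;Sost-ko against WT. The log2 ratio of *Comp* to *Acan* had means of 1.03 ± 0.40, 0.99 ± 0.77 and 1.01 ± 0.90 in the same order of groups, with exact permutation p of 1, 0.971 and 0.971. Adjusted over these 6 tests, each p was 1, and the smallest p that 4 against 4 mice allow is 0.0286.

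**Figure D3:**
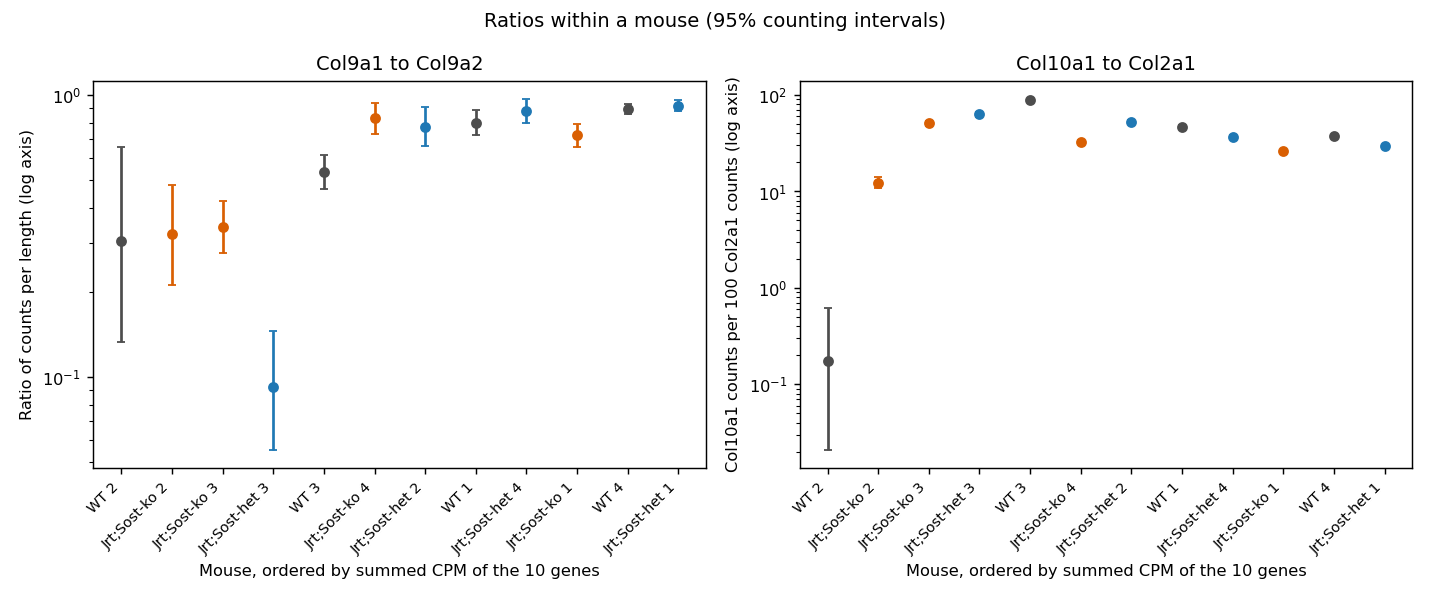
Left, ratio of *Col9a1* to *Col9a2* per length, and right, *Col10a1* counts per 100 *Col2a1* counts, both on log axes, with 1 point per mouse in its group's colour (WT grey, Jrt;Sost-het blue, Jrt;Sost-ko orange), 95% counting intervals as bars, and mice ordered by the summed CPM of the 10 genes. The *Col9a1* ratio is 0.342 or less in the 4 mice at the left, and the *Col10a1* ratio is 0.173 in WT mouse 2.

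The comparison of Jrt;Sost-ko with Jrt;Sost-het mice asks what loss of sclerostin changes in mice with the *Col1a1* mutation. All 10 cartilage genes had a lower mean in Jrt;Sost-ko mice, with log2 fold changes from -3.15 to -0.91 and a median of -1.79. Over the 16739 genes tested the median was 0.00, and 49.6% were lower. The 10 genes moved together over the 12 mice (median pairwise r 0.91), so their shared direction is not 10 separate results. None of the 10 had an adjusted p under 0.05 (edgeR), and the smallest was 0.901. Limma-voom called none, and DESeq2 called none of the 9 for which it gave a p (all but *Acan*). Over all genes this rule called 0.00597%, which was *Sost* alone. An unadjusted edgeR p under 0.05 was found for 2 of the 10, *Comp* and *Matn1*, beside 5.02% of all genes tested. None of the 10 separated the groups, beside 3.05% of all genes.

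*Comp* was 85.4 ± 22.4 CPM (SD, n = 4) in Jrt;Sost-ko and 161 ± 74.3 CPM in Jrt;Sost-het mice. Its log2 fold change was -0.91 (SE 0.31, 95% interval -1.60 to -0.21), and its unadjusted p of 0.016 was rank 257 among the genes tested (adjusted p = 0.901). The exact permutation test on log2 CPM gave p = 0.0571, the Jrt;Sost-ko mouse being higher in 1 of 16 pairs of mice. Without Jrt;Sost-het mouse 1 the change was -0.55 (unadjusted p = 0.0318 in edgeR). That mouse had been singled out by its high levels of the same genes, so this p is only a description. By the size of the change, *Comp* was the member whose lower level in Jrt;Sost-ko mice rested least on that mouse. It did not pass the adjustment over all genes. When all 12 mice shared an estimate of spread, its unadjusted edgeR p was 0.0903.

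*Matn1* was 0.450 ± 0.407 CPM in Jrt;Sost-ko and 3.91 ± 5.39 CPM in Jrt;Sost-het mice. Its log2 fold change was -3.15 (SE 1.19, 95% interval -5.83 to -0.46), with an unadjusted p of 0.0266 in edgeR. The exact permutation test gave p = 0.143. Leaving out Jrt;Sost-het mouse 1 brought the change to -1.51 and the unadjusted edgeR p to 0.153, which is again only a description.

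For the other 8 genes the 95% intervals included no change. *Col10a1* had a log2 fold change of -1.90 (SE 0.91, 95% interval -3.97 to 0.16), *Acan* -1.30 (SE 0.66, -2.79 to 0.20) and *Col2a1* -1.72 (SE 1.01, -4.01 to 0.57). *Hapln1* had -1.75 and the chains of type IX collagen -2.07, -1.71 and -1.84 in the order *Col9a1*, *Col9a2*, *Col9a3*. *Matn3* had -2.16 with the widest interval of the 10, from -5.47 to 1.15. Without Jrt;Sost-het mouse 1 the changes of these 8 genes were between -0.71 and -0.11, each smaller than its standard error. The size of the difference for them therefore rested on 1 mouse, while its sign stayed negative.

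**Figure D4:**
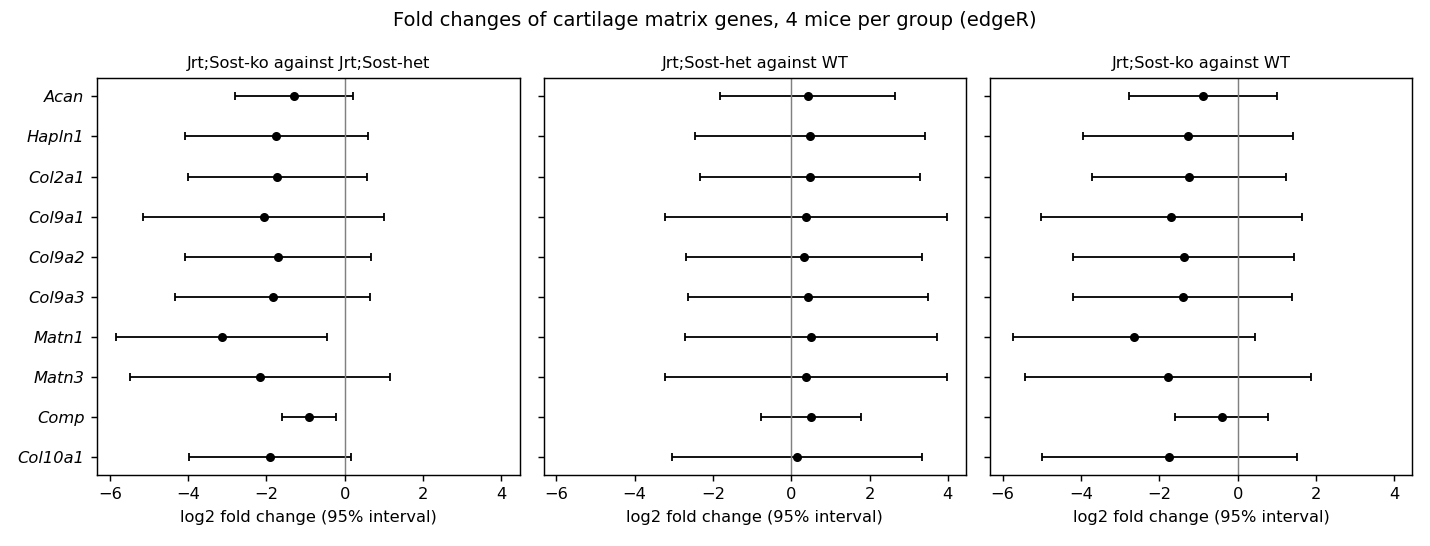
Log2 fold change of each gene (points) with its 95% interval (bars) in the 3 comparisons, fitted with edgeR on the 8 mice of each pair. The intervals of *Comp* and *Matn1* in the left panel, which sets Jrt;Sost-ko against Jrt;Sost-het, lie below 0, and all others include 0.

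Jrt;Sost-het mice were compared with WT mice, which differ from them in the *Col1a1* allele, in *Sost* dosage and in colony. All 10 genes had a higher mean in Jrt;Sost-het mice, by log2 fold changes of 0.15 (*Col10a1*) to 0.50 (*Comp* and *Matn1*) with a median of 0.42. Over 16775 genes the median was 0.00, and 48.7% were lower in Jrt;Sost-het mice. None of the 10 was called by edgeR, DESeq2 or limma-voom, none had an unadjusted p under 0.05, and none separated the groups. Over all genes tested, the shares were 0% by adjusted p, 2.14% by unadjusted p and 1.5% by groups without overlap. The smallest unadjusted p was 0.394, for *Comp* (edgeR, adjusted p = 1.0). The 95% interval of *Col2a1* was wide with 4 mice per group, from -2.33 to 3.30, so that several-fold changes either way were not excluded. That of *Comp* was narrower, from -0.77 to 1.77. Without Jrt;Sost-het mouse 1 the sign turned for 9 of the 10 genes, to log2 fold changes between -1.39 and -0.74, and only *Comp* stayed positive at 0.15. The log2 fold change of *Comp* was 1.24 without WT mouse 4 and 0.87 without both of the highest mice, with unadjusted p of 0.0169 and 0.0326 in edgeR, and its exact permutation p with all mice was 0.286. Both mice had been singled out by their levels of the same genes, so these edgeR p are only a description. The adjusted p of *Comp* was 0.525 or more under every alternative with edgeR, DESeq2 or limma-voom.

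Against WT, Jrt;Sost-ko mice had a lower mean for all 10 genes. The median of their log2 fold changes was -1.39 beside 0.00 for the 17155 genes tested, of which 50.9% were lower. This comparison shares its Jrt;Sost-ko mice with the first and its WT mice with the second. *Matn1* had the largest change, -2.64 (95% interval -5.74 to 0.46), and *Comp* the smallest, -0.41 (-1.59 to 0.77). No member was called (smallest adjusted p 1.0 in edgeR, with 0 by limma-voom and 0 by DESeq2, which gave no p for *Matn1*), none had an unadjusted p under 0.05 and none separated the groups. Of all genes tested, 0.00583% were called, 3.89% had an unadjusted p under 0.05 and 2.36% separated the groups. Without WT mouse 4 the sign turned for 8 of the 10 genes, which then had log2 fold changes of 0.33 to 0.71. *Col10a1* (-0.39) and *Matn1* (-0.09) remained lower. Without WT mouse 2 *Col10a1* was at -2.16 and *Matn1* at -3.03, with unadjusted edgeR p of 0.0446 and 0.0417. Neither was called after adjustment. That mouse had been singled out by its low levels of the 10 genes, so these p are only a description.

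Genes that move like the 10 across mice were sought among all others by the Pearson correlation of log2 CPM over the 12 mice with the mean standardized level of the 10. The points are libraries, and 2 of them dominate the range, so r is given as a description. The 3 closest genes were *Lect1* (listed as *Cnmd* in current annotation, chondromodulin of avascular cartilage; r = 0.974), *Mia* (a small protein secreted by chondrocytes; r = 0.966) and *Baiap2l1* (r = 0.961). *Ucma*, a matrix protein of the growth plate, *3110079O15Rik* (current symbol *Snorc*, a chondrocyte proteoglycan), *Itih5l-ps*, *Panx3*, *R3hdml*, *Ihh*, the hedgehog ligand of prehypertrophic chondrocytes, and *Bbs7* followed, with r from 0.957 down to 0.905. With each group's mean taken away, 8 of these 10 genes were still among the first 10. *Lect1* ranged from 0.627 to 67.6 CPM, and *Ucma* from 0 counts in WT mouse 2, which allows up to 3 counts, to 7.39 CPM in Jrt;Sost-het mouse 1. Several of the others had few counts or moved little. *Baiap2l1* ranged from 0.24 to 1.29 CPM, *Itih5l-ps* from 0 to 1.89 CPM and *R3hdml* from 0 to 1.97 CPM. *Mia* had 2 counts in its lowest library, and *Bbs7* ranged only 1.70-fold, from 4.07 to 6.92 CPM.

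Other lists of cartilage genes were fixed by name and followed in the same way. Of 24 further cartilage matrix genes, 12 had Jrt;Sost-het mouse 1 and WT mouse 4 as their highest pair of mice, among them *Lect1*, *Ucma*, *Epyc*, *Col11a1* and *Col11a2*, and 16 had WT mouse 2 as the lowest. *Col11a1* and *Col11a2*, chains of the collagen at the core of cartilage fibrils that bone cells also express, ranged only from 615 to 1568 and from 594 to 1538 CPM. Of 15 chondrocyte regulators 6 had that pair highest, including *Sox9*, the master factor of chondrocytes (1.61 to 8.36 CPM), and *Ihh* (0.342 to 8.57 CPM). Of 14 genes of sulfation and proteoglycan synthesis 2 did, *Papss2* and *Slc26a2*. Of 11 genes of matrix degradation 3 did, and of 9 genes that hypertrophic cartilage shares with bone 4. WT mouse 2 was the lowest for 6 of the 15 regulators and 6 of the 14 sulfation genes. The same held for 7 of the 11 degradation genes and 6 of the 9 hypertrophic genes. Over all 17245 genes with enough counts, 2.93% had that pair highest and 17.6% had WT mouse 2 lowest. These lists overlap, since the hypertrophic list shares *Mmp13* with the degradation list and *Ihh* with the regulators, and both genes are counted in each. None of the genes of these lists was called by edgeR in any of the 3 comparisons. Between the 2 Jrt genotypes the median log2 fold change was -0.39 over the 24 matrix genes (17 lower), -0.12 over the 15 regulators (11 lower), 0.05 over the sulfation list, 0.12 over the degradation list and -0.13 over the hypertrophic list. The medians of these lists were nearer to 0 than that of the 10 genes (-1.79). Single genes of them had larger changes, *Lect1* at -2.14 (SE 1.20) lying beyond that median. *Ucma* at -1.56 (SE 1.04) and *Prg4* at -1.43 (SE 0.65) fell short of it. *Lect1*, *Ucma* and *Prg4* did not pass the test.

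Markers of neighbouring tissues were read in the same libraries. The 8 tendon and ligament genes summed to 452 CPM in Jrt;Sost-het mouse 1 and 402 CPM in WT mouse 4, which were again the highest, and to 75.1 CPM in WT mouse 2, again the lowest, with 109 to 369 CPM in the others. Most of the sum in the former pair was *Fmod* (302 and 263 CPM), which is also among the further cartilage matrix genes. Without it the other 7 genes summed to 150 and 139 CPM in that pair, and Jrt;Sost-ko mouse 1 was the highest with 175 CPM. Of the 8 genes 2 (*Scx* and *Fmod*) had the same highest pair and 6 had WT mouse 2 lowest, beside 2.93% and 17.6% of all genes. Summed, the 9 osteoblast genes were lowest in WT mouse 2 too (22749 CPM), but highest in Jrt;Sost-ko mouse 3 (69268 CPM). Singly, 1 of them had the highest pair of the cartilage genes and 5 had WT mouse 2 lowest. The 16 skeletal muscle genes were at 35631 CPM in WT mouse 4 but at 2885 CPM in Jrt;Sost-het mouse 1, below 8 other mice, and ranged down to 76.8 CPM in Jrt;Sost-ko mouse 4. The 7 epidermis genes were at 608 CPM in WT mouse 4, 133 CPM in WT mouse 3 and 4.1 to 6.3 CPM in the rest, Jrt;Sost-het mouse 1 included. The marker sums of muscle and epidermis were therefore not raised together with the cartilage genes in Jrt;Sost-het mouse 1. Between the 2 Jrt genotypes, all 16 muscle genes had a lower mean in Jrt;Sost-ko mice, as the cartilage genes did, with a median log2 fold change of -0.98, and 6 of 7 tendon genes tested were lower with a median of -0.17, whereas 1 of 9 osteoblast genes was lower with a median of 0.35. The 7 neutrophil genes summed highest in WT mouse 2 (28350 CPM) and lowest in WT mouse 4 (15267 CPM), with 18106 CPM in Jrt;Sost-het mouse 1. The 7 erythroid genes had 27186, 16812 and 23164 CPM in these mice, in the same order. The 5 adipocyte genes were lowest in WT mouse 2 (359 CPM). No gene of the tendon, osteoblast, muscle, epidermis, erythroid, neutrophil and adipocyte lists was called by edgeR in any comparison. The part of tissue at the ends or on the surface of the shaft in these levels was not tested.

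**Figure D5:**
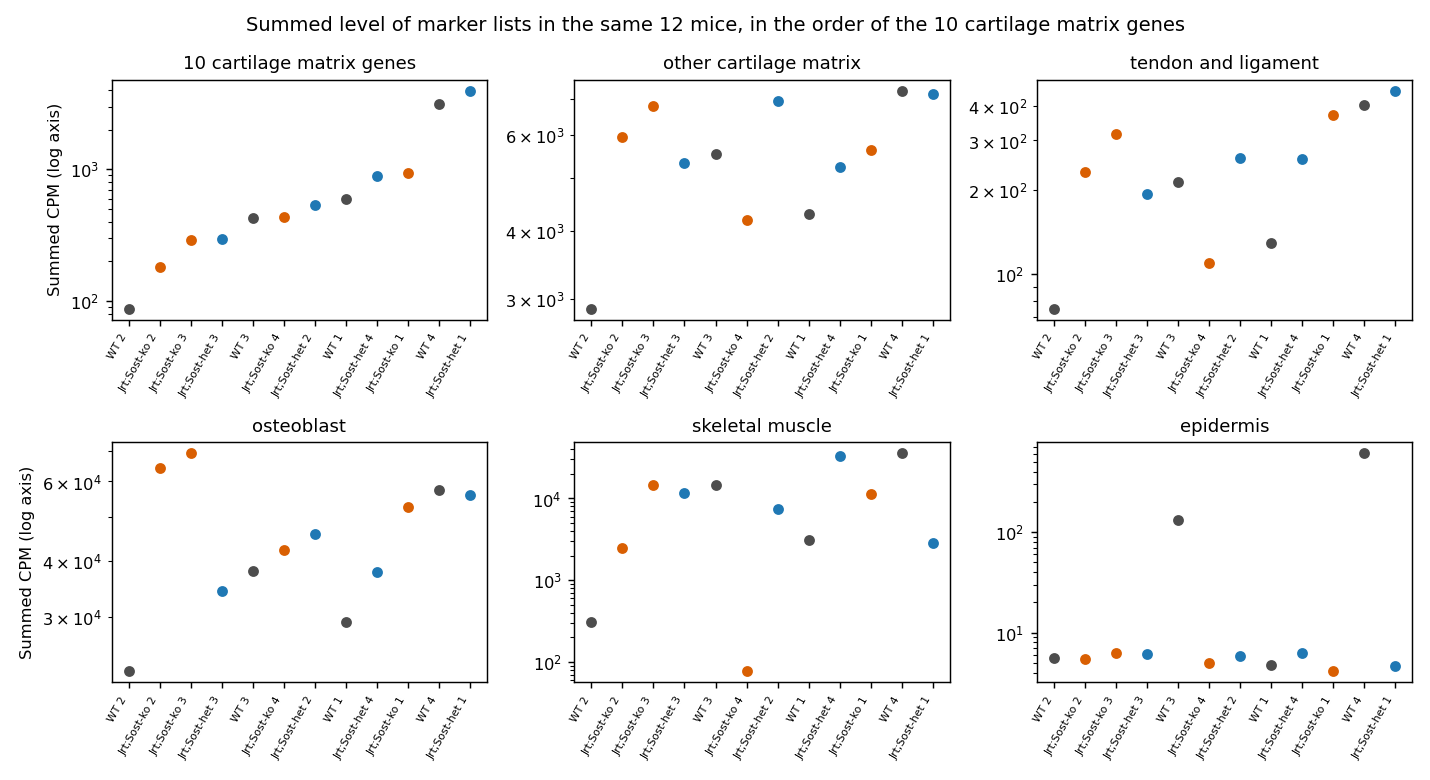
Summed CPM on log axes of the 10 cartilage matrix genes and of 5 marker lists, with 1 point per mouse (WT grey, Jrt;Sost-het blue, Jrt;Sost-ko orange) and mice in the order of the 10 genes in every panel. The tendon list is highest in the same pair of mice as the cartilage genes, mostly through *Fmod*, and muscle and epidermis are high in WT mouse 4 but not in Jrt;Sost-het mouse 1.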

How the data were processed

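Tibia shafts of 12 male mice, 4 per group, were flushed of marrow before total RNA was extracted, and 1 library was made per mouse. The authors aligned the reads to GRCm38 with STAR and deposited a matrix of raw counts per gene, not normalized, with between 24366061 and 44418863 counts per library. The counting tool, its strand setting and the annotation release are not given in the sources used here. The labels give bcl2fastq 2.20 among the tools. The authors' comparison tables hold fold changes and p-values and were not used.

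The 8 mice of each comparison were fitted in R 4.3.3 with edgeR 4.0.16 (TMM, filterByExpr, glmQLFit, glmQLFTest), with Benjamini-Hochberg adjustment over all genes tested and a threshold of 0.05. Log2 CPM used a prior count of 2, count ratios a pseudocount of 0.5, and RPKM the union of exons in GENCODE M21 (GRCm38). Two-sided exact permutation tests ran over the 70 arrangements of 4 against 4 mice. Alternatives were DESeq2 1.42.0, DESeq2 size factors in edgeR, limma 3.58.1 (voom with sample quality weights), no filter on low counts, all 12 mice in a single fit, a pseudocount of 2 for ratios, and leaving out each mouse. Leaving out both libraries highest in the 10 genes, and the ratio of *Col9a1* to *Col9a2*, were added once the data had been seen. Functions were tested on simulated data with known changes.

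The 10 genes, the lists and the tests were chosen with earlier results of these data known. The text names the 10 genes, any list gene with an adjusted p under 0.05 (there was none), the 10 other genes most correlated with them, and a few examples per list. List genes named for sharing the highest pair of mice, *Prg4*, *Nt5dc1* and *Tcfl5* were named after their values were seen. Of 26 further cartilage matrix genes listed, 24 were found by symbol, *Cnmd* under its older symbol *Lect1*, while *Snorc* is in the matrix under an older symbol that the list did not hold. The p-values judge a difference between groups against the spread between mice of a group.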

Additional observations from a re-analysis of the deposited data

Results flagged for a closer look

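Within groups of 4 mice, a value was singled out where its gap to the nearest other mouse was a larger part of the group's whole range than Dixon's 95% critical value for 4. Of 36 sets of 4 values, 11 exceeded it. For normally distributed values chance gives about 1 in 20, but the gene levels were CPM without logarithm, which are skewed. The number of flags therefore cannot be read as an excess over chance. In Jrt;Sost-het mice, mouse 1 stood apart above the rest for *Acan* (ratio of gap to range 0.931), *Col2a1* (0.842) and *Col10a1* (0.834). In WT mice, mouse 4 stood apart above the rest for *Col2a1* (0.852), *Col9a1* (0.860), *Col9a2* (0.848), *Col9a3* (0.852), *Matn1* (0.912), *Matn3* (0.888) and *Hapln1* (0.857). Mouse 2 of WT stood apart below the rest in the log2 count ratio of *Col10a1* to *Col2a1* (0.860). No set of Jrt;Sost-ko values was singled out. The flags are not independent, since the same libraries are high for all 10 genes.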

How the results depend on the processing

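No paired analysis was possible because the labels give the groups no shared replicate numbers. None of the 10 genes was called in any comparison under any of the 14 alternatives each, though DESeq2 gave no p for *Acan* between the 2 Jrt genotypes and for *Matn1* between Jrt;Sost-ko and WT mice. Between the 2 Jrt genotypes, all 140 alternative fold changes of the 10 genes stayed negative. These fits reuse the same mice and the 10 genes moved together, so the 140 values are not separate results.

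Against WT the sign depended on single mice. With 1 mouse left out, the log2 fold change for Jrt;Sost-het against WT ranged from -0.74 to 1.63 for *Acan*, -1.13 to 2.26 for *Col2a1*, -1.39 to 2.55 for *Col9a1*, -1.24 to 2.20 for *Col9a2*, -1.28 to 2.41 for *Col9a3*, -1.04 to 1.52 for *Col10a1*, -1.12 to 3.06 for *Matn1*, -1.34 to 2.86 for *Matn3* and -0.99 to 2.39 for *Hapln1*. The lower ends came without Jrt;Sost-het mouse 1. For Jrt;Sost-ko against WT the ranges were -1.26 to 0.33 for *Acan*, -2.08 to 0.53 for *Col2a1*, -2.64 to 0.48 for *Col9a1*, -2.22 to 0.49 for *Col9a2*, -2.18 to 0.57 for *Col9a3*, -0.70 to 0.33 for *Comp*, -3.21 to 0.71 for *Matn3* and -2.11 to 0.64 for *Hapln1*. The upper ends came without WT mouse 4, and leaving out both highest libraries gave the same values, since Jrt;Sost-het mice are not in that comparison. With limma-voom and sample quality weights, *Acan* was at 0.013 and *Comp* at 0.15. The causes were not tested.

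The log2 ratio of *Col10a1* to *Col2a1* differed by -0.31 to 2.58 for Jrt;Sost-het against WT and by -0.997 to 1.90 for Jrt;Sost-ko against WT with 1 mouse left out. For *Comp* to *Acan* the differences were -0.29 to 0.41, -0.25 to 0.45 and, between the 2 Jrt genotypes, -0.33 to 0.27. Without both highest libraries they were 0.076, -0.25 and -0.33.

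Over all genes, DESeq2 called 7 genes between the 2 Jrt genotypes, 4 for Jrt;Sost-het against WT and 18 for Jrt;Sost-ko against WT. Limma-voom called 0 and 2 for the first and the last. For Jrt;Sost-ko against WT, 2 were called with no low-count filter and 2 without both highest libraries. With 1 mouse left out the counts were 0 to 3 and 0 to 2 for the first and the last.

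*Matn1* and *Matn3* rested on 12 or fewer counts in several libraries, which limits their values there.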
